A study of Mus musculus with 2 samples.

Results

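Microglia (MGL) were the nuclei that carry the name MGL in the authors' per-nucleus annotation of 2 droplet-based single-nucleus ATAC-seq libraries. There were 1028 of them among 16314 nuclei, 514 in each library. The name was taken as deposited. C1qb, Siglech and P2ry12 are the markers for this name. C1qb encodes a chain of the complement component C1q, Siglech a sialic acid-binding lectin and P2ry12 a purinergic receptor of microglial processes. The tables hold no measurement per gene, so the name was not checked against these genes, and accessibility at single loci was not analysed here.

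Microglia are the resident macrophages of the brain parenchyma. They descend from yolk sac progenitors, survey the tissue with motile processes, prune synapses with the help of complement and clear debris and dying cells. In the naming scheme of the study, MGL is a subclass that holds microglia together with perivascular macrophages, which lie along vessels, and the annotation used here does not tell them apart. ATAC-seq cuts and tags open chromatin with a transposase, so each sequenced fragment stands for a pair of cuts in accessible DNA, and the number of fragments per nucleus limits how finely its open chromatin can be described.

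Both libraries came from MOp-2, a dissection of the primary motor cortex, and were made on the 10x platform as replicates 1 and 2 of 1 condition. According to the methods, the mice were male C57BL/6J animals of 56 to 63 days, and tissue was pooled over animals for each biological replicate, a statement that is not made separately for the 10x libraries. Replicate 1 held 7440 nuclei and replicate 2 held 8874, under 17 names. There were no groups to test, and an exact two-sided sign-flip test over 2 libraries cannot give a p-value below 0.5, so values are given per library and as mean ± SD over 2 libraries. Intervals of shares are exact Clopper-Pearson 95% binomial intervals, and those of log2 ratios use a normal approximation. All of them cover counting error only. Of the cell barcodes, 105 occurred in both libraries, and 13 of those belonged to MGL in at least 1 library and 1 to MGL in both.

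MGL made up 6.91% of the nuclei in replicate 1 (6.34 to 7.51) and 5.79% in replicate 2 (5.32 to 6.30). They held a smaller share of the unique fragments, 2.63% in replicate 1 and 2.46% in replicate 2. Among the non-neuronal nuclei they came after oligodendrocytes (OGC), which make myelin, and astrocytes (ASC), with 18.9% (17.4 to 20.4) in replicate 1 and 16.4% (15.1 to 17.7) in replicate 2. Oligodendrocyte precursors (OPC), vascular endothelial cells (VEC), vascular and leptomeningeal cells (VLMC) and pericytes (PER) were fewer in both libraries.

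The nuclei of microglia were among the shallowest. In replicate 1 their unique fragments ranged from 1010 to 6895 with a median of 2278, and quartiles at 1831.5 and 2960.5. In replicate 2 they ranged from 1000 to 37507 with a median of 2063, and quartiles at 1573.25 and 2657.75. Replicate 2 was lower at the median and at the quartiles, while its highest value was far higher. A lower median in replicate 2 was found in all 17 names. The ratio to replicate 1 was 0.906 for MGL and ranged from 0.764 for VEC to 0.981 for the neurons named ITL4GL. Over 2 libraries the MGL median was 2170.5 ± 152 unique fragments, which was 0.754 ± 0.00330 of the median of the other non-neuronal nuclei. Against single names, the MGL median was 0.684 and 0.682 of that of ASC in replicates 1 and 2, and 0.622 and 0.630 of that of OPC. It was 0.924 and 0.887 of the OGC median, so microglia lay below the next abundant shallow type in both libraries. Against PER, cells that wrap capillaries, the difference was 61 fragments in replicate 1 and 3 in replicate 2 (mean difference -32.0 ± 41.0), which was within the spread between the libraries. On total fragments MGL had a median of 2822 and 2595.5. PER had 2855 and 2586, so MGL was the lowest of the 17 names on total fragments in replicate 1 only. On uniquely mapped fragments MGL was the lowest in both, with 2659.5 and 2428.5 beside 2749 and 2437.5 for PER. Properly paired fragments gave the same order, with 2647.5 and 2414 for MGL.

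**Figure D1:**
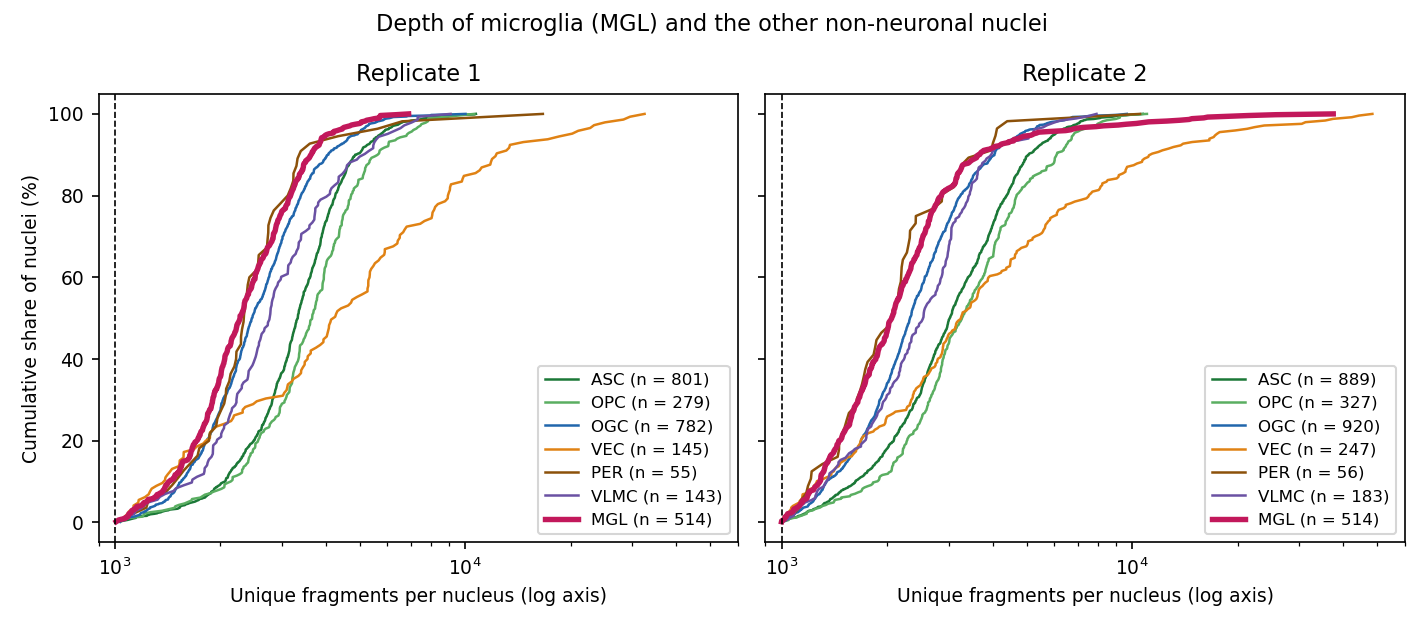
Cumulative share of nuclei (%) against unique fragments per nucleus (log axis) for MGL (thick line) and the other 6 non-neuronal names in replicates 1 and 2; the dashed line marks the deposited minimum of 1000. The MGL curve lies left of those of OGC, VLMC, ASC and OPC at the median in both libraries, and in replicate 2 it has a long right end that reaches 37507.

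Many microglia lay close to the minimum of 1000 unique fragments. Nuclei under 1500 fragments made up 60 of 514 MGL nuclei in replicate 1 (11.7%, 9.03 to 14.8) and 111 of 514 in replicate 2 (21.6%, 18.1 to 25.4). In OGC they made up 8.31% (6.47 to 10.5) and 13.5% (11.3 to 15.9), and in ASC 3.25% (2.13 to 4.72) and 7.99% (6.29 to 9.97). The intervals of MGL lay above those of ASC in both libraries and above that of OGC in replicate 2, while in replicate 1 they overlapped those of OGC. VEC had 13.1% (8.08 to 19.7) and 15.0% (10.8 to 20.1), and PER 9.09% (3.02 to 20.0) and 21.4% (11.6 to 34.4), and both overlapped those of MGL. Under 2000 fragments there were 182 MGL nuclei in replicate 1 (35.4%) and 239 in replicate 2 (46.5%).

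The share of microglia depended on the minimum that was set. With at least 2000 unique fragments, 64.6% of the MGL nuclei of replicate 1 and 53.5% of those of replicate 2 were kept, beside 82.5% and 74.9% of the other non-neuronal nuclei. Their share of non-neuronal nuclei then was 15.4% (13.9 to 17.0) and 12.3% (10.9 to 13.7). With at least 3000 it was 9.92% (8.31 to 11.7) and 8.01% (6.52 to 9.71). With at least 5000 there were 13 MGL nuclei in replicate 1 and 28 in replicate 2, and the share was 5.12% (2.75 to 8.59) and 9.06% (6.11 to 12.8). In replicate 2 the share was 6.97% (5.09 to 9.27) with at least 4000, so it fell and then rose with the minimum. Its intervals at 3000, 4000 and 5000 overlapped. These sets of nuclei are nested, so the overlap cannot decide whether the rise exceeds counting error, which was not tested. Without a small island of 34 MGL nuclei described below, chosen after its values were seen, the shares at 5000 were 5.12% and 2.43% (0.983 to 4.94).

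**Figure D2:**
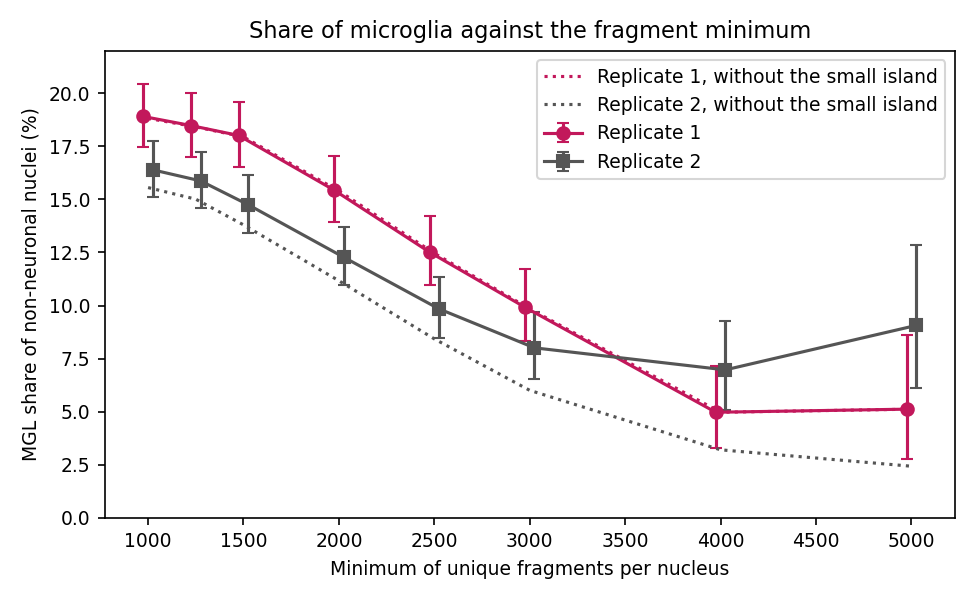
MGL share of non-neuronal nuclei (%) in replicates 1 and 2 when only nuclei with at least the given number of unique fragments are kept; bars are exact 95% intervals (counting error only), points are offset sideways for clarity, and dotted lines leave out the small island. The share falls from 18.9% and 16.4% at 1000 to 9.92% and 8.01% at 3000, and in replicate 2 it is 9.06% at 5000 with the small island and 2.43% without it.

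The order of the libraries turned with the minimum as well. On the log2 scale, the ratio of the MGL share of all nuclei in replicate 2 to that in replicate 1 was -0.25 in all nuclei (95% counting interval -0.42 to -0.08), -0.48 (-0.70 to -0.25) with at least 2000 fragments and -0.56 (-0.95 to -0.18) with at least 3000. It was 0.49 (-0.21 to 1.18) with at least 4000 and 0.97 (0.02 to 1.92) with at least 5000. The value at 5000 rests on 13 and 28 nuclei, where the normal approximation is coarse. Without the small island the ratio was negative at every minimum tried, with -0.33 (-0.50 to -0.16) in all nuclei, -0.99 (-1.41 to -0.57) at 3000 and -1.02 (-2.35 to 0.30) at 5000. The last value rests on 13 and 7 nuclei and its interval includes 0. The island was chosen after its values were seen. With at least 5000 fragments it held 21 of the 28 MGL nuclei of replicate 2 and 0 of the 13 of replicate 1. The change of sign at 5000 thus follows from leaving it out, and these intervals do not cover that choice.

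Fragments of microglia mapped uniquely less often than those of the other glia. The uniquely mapped share, which is uniquely mapped over total fragments in a nucleus, ranged from 65.6% to 96.5% with a median of 94.5% in the MGL nuclei of replicate 1, and from 78.2% to 97.5% with a median of 94.4% in those of replicate 2. The 2 medians were nearly equal, while single nuclei spread widely at the low end. The median was lower than in the other non-neuronal nuclei in both libraries, with differences (MGL minus others) of -1.28 percentage points in replicate 1 and -1.42 in replicate 2. Against single names, the mean difference was -1.19 ± 0.135 for ASC, -1.44 ± 0.151 for OPC and -1.71 ± 0.147 for OGC. It was -1.84 ± 0.102 for PER and -1.13 ± 0.0923 for VLMC, the cells of vessel walls and meninges. These 5 differences were several times their spread over the libraries and negative in 2 of 2. Against VEC the difference was -0.482 in replicate 1 and 0.0714 in replicate 2, which was within the spread (mean -0.205 ± 0.392). MGL and VEC were the lowest of the 17 names in both libraries.

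**Figure D3:**
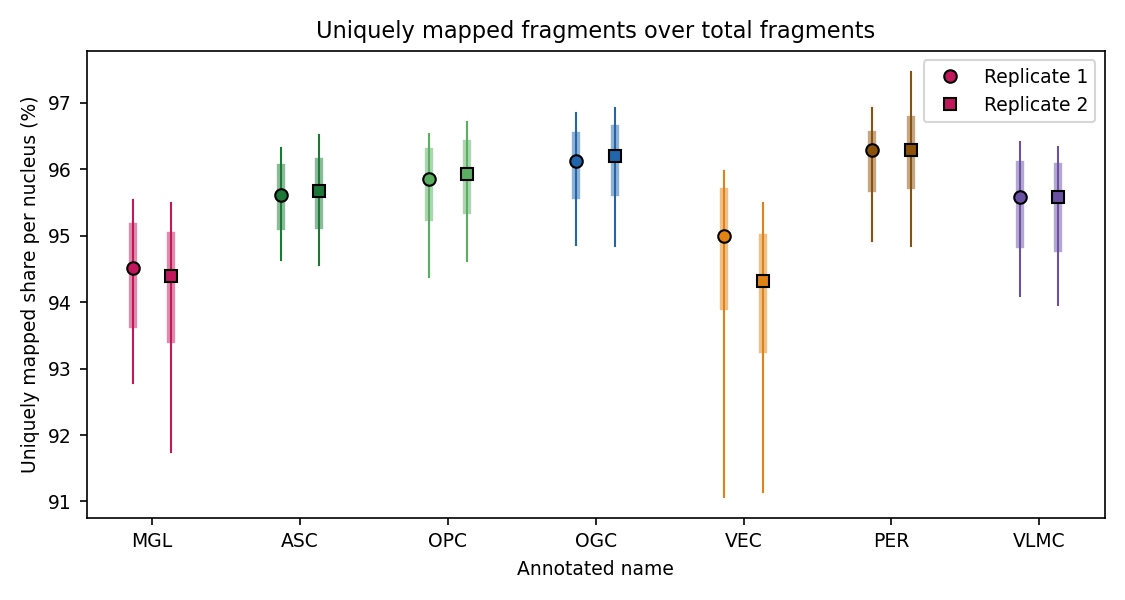
Uniquely mapped share per nucleus (%) in the 7 non-neuronal names, with medians (circles, replicate 1; squares, replicate 2), quartiles (thick bars) and 10th to 90th percentiles (thin lines) over nuclei; the axis does not start at 0. The MGL medians of 94.5% and 94.4% lie below those of every name shown other than VEC, whose median in replicate 2 is 94.3%.

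The lower mapping of microglia involved a large share of the nuclei. In replicate 1, 250 of 514 MGL nuclei (48.6%, 44.2 to 53.1) lay below the 10th percentile of the other non-neuronal nuclei, 94.5%. In replicate 2, 216 of 514 (42.0%, 37.7 to 46.4) lay below the corresponding 94.1%. In VEC these shares were 35.9% (28.1 to 44.2) and 42.9% (36.7 to 49.3), with intervals that overlap those of MGL, while in ASC they were 7.62% and 6.64% and in OGC 6.65% and 5.54%. The SD of the uniquely mapped share over MGL nuclei was 1.74 percentage points in replicate 1 and 2.26 in replicate 2, where counting error alone gives 0.452 and 0.517. VEC had larger SDs of 2.44 and 2.48, and ASC (0.757 and 0.954) and OGC (1.03 and 1.46) also exceeded their counting error of 0.341 to 0.385. The difference was also present at equal depth. In each of 8 bins of unique fragments the MGL median was below that of the other non-neuronal nuclei in both libraries, by -0.958 to -1.65 percentage points in replicate 1 and by -1.27 to -2.37 in replicate 2. The largest gap, -2.37, was that of replicate 2 from 4000 fragments up, and it was -1.16 without the small island. Weighting the other non-neuronal nuclei to the depths of MGL gave differences of -1.38 and -1.49. Within MGL the uniquely mapped share showed hardly any relation to depth, with a rank correlation over 514 nuclei of -0.000586 in replicate 1 and -0.0856 in replicate 2. These are descriptions across nuclei that share a library.

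Pairing and duplication were close to those of the other names. Of the uniquely mapped fragments, a median of 99.6% was properly paired in both libraries. The duplicate share, which is the share of properly paired fragments that repeat another, had a median of 14.1% in replicate 1 and 14.8% in replicate 2. It differed from that of the other non-neuronal nuclei by 0.0653 and -0.0506 percentage points, within the spread between the libraries. When depth was matched by weighting, the differences were 0.221 and 0.116, positive in both libraries and larger on average (0.169) than their SD of 0.0747. The mitochondrial count was listed as 0 in every nucleus of all 17 names, so that column holds no information on MGL.

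In the deposited UMAP embedding, microglia lay apart from the other names with the exception of 2 VEC nuclei. Linking nuclei closer than 5 times the median distance to the 10th nearest neighbour joined all 514 MGL nuclei of each library into 1 island. In each library 0 of 514 were outside it, a count that is set by the linking distance, and a shorter distance is described below. Of the 30 nearest neighbours of an MGL nucleus, 99.98% in replicate 1 and 99.74% in replicate 2 were MGL, and all 43 others of 30840 were VEC. The name and the position come from the same accessibility profile, so this is a description of the annotation and not a test of it. By the median position, OPC were nearest (4.94 units of the embedding), followed by OGC (9.22) and ASC (9.98), while neurons named PVGA, the Pvalb+ interneurons, were farthest (30.6). Distances between separate islands of such an embedding are not to scale. These 2 VEC nuclei, both of replicate 2, lay inside the MGL island, the closer at 0.0302 units from an MGL nucleus, with 1262 and 1523 unique fragments and uniquely mapped shares of 84.2% and 79.4%. The next VEC nucleus lay 4.66 units away.

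With a shorter linking distance of 3 times, 34 MGL nuclei formed a small island of their own at the upper right end, at a gap of 0.284 units where the linking distance was 0.244. The same 34 nuclei came out with each multiple tried from 1.5 to 3.4, and joined the main island from 3.5 up. Replicate 1 contributed 3 of them (0.584% of its MGL nuclei, 0.121 to 1.70) and replicate 2 contributed 31 (6.03%, 4.13 to 8.45). None had a barcode that occurs in both libraries. Since 31 of 34 came from 1 library, a cell population and an effect of that library cannot be told apart here, and the island is given no name. All 3 and 31 of its nuclei had a VEC nucleus among their 30 nearest neighbours, and 0 of the main island had a neighbour of another name. Those neighbours were the same 2 VEC nuclei described above. In an island of 34 nuclei, 30 neighbours take in most of the island. The counts thus follow largely from its size and the position of these 2 nuclei. No doublet caller was run on these tables, and the part of doublets in the small island was not tested.

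**Figure D4:**
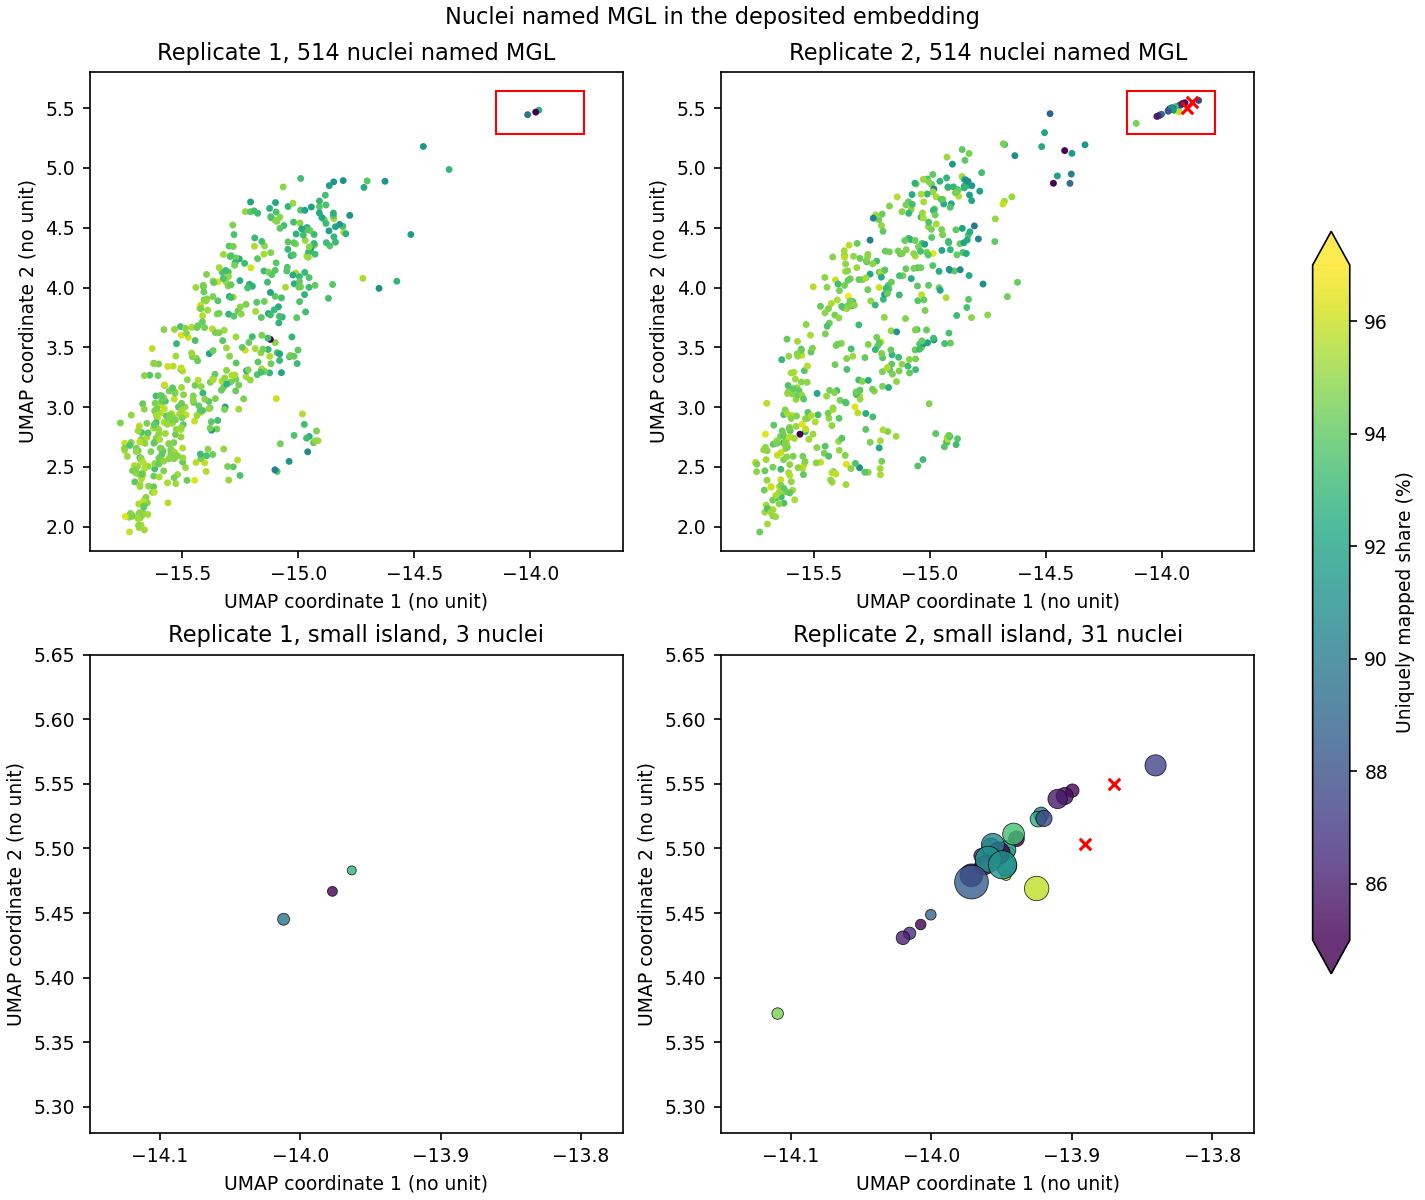
Positions of MGL nuclei in the UMAP embedding (no unit) for replicates 1 and 2, coloured by uniquely mapped share (%), with the small island (red box) enlarged below, where the point area grows with unique fragments; red crosses are the 2 VEC nuclei of replicate 2. The small island holds 3 nuclei of replicate 1 and 31 of replicate 2, and the uniquely mapped share is lower toward the upper right of the main island in both libraries.

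The small island held the deepest MGL nuclei of replicate 2. Its 3 nuclei of replicate 1 had 1018, 1561 and 3070 unique fragments. Its 31 nuclei of replicate 2 ranged from 1061 to 37507 with a median of 8298, beside a median of 2013 and a highest value of 7895 in the main island of the same library. The replicate 1 nuclei thus lay within the range of the main island. In replicate 2 the median of the small island lay just above the highest value of the main island. Many of its other nuclei lay within the range of the main island. Of the 28 MGL nuclei of replicate 2 with at least 5000 fragments 21 were in the small island, and of the 13 with at least 10000 all 13 were. In replicate 1, 0 of 514 MGL nuclei reached 10000, where 3 counts would be a share of 0.584% and the exact interval reaches 0.715%. The small island supplied 22.9% of the unique fragments of MGL in replicate 2 and 0.446% in replicate 1.

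Its fragments mapped less uniquely than those of any MGL bin along the main island. The uniquely mapped shares of its 3 nuclei in replicate 1 were 84.5%, 89.7% and 92.8%. In replicate 2 they ranged from 78.2% to 95.8% with a median of 89.9%, beside 94.4% in the main island. Of the 24 MGL nuclei of replicate 2 under 90%, 17 were in the small island, and of the 3 in replicate 1 it held 2. Summed over nuclei, the uniquely mapped share of MGL was 94.2% in replicate 1 and 92.9% in replicate 2, and in the main island alone it was 94.2% and 94.1%. The duplicate share was like that of other microglia, with medians of 14.0% and 14.5%. Deep nuclei are not a feature of MGL alone. Nuclei over 3 times the median of their own name and library made up 1 of 514 MGL nuclei in replicate 1 (0.195%, 0.00493 to 1.08) and 22 of 514 in replicate 2 (4.28%, 2.70 to 6.41). VEC had 14 of 145 (9.66%, 5.38 to 15.7) and 32 of 247 (12.96%, 9.03 to 17.8), and OGC 4 of 782 and 7 of 920. VEC was high in both libraries, whereas MGL was high in replicate 2 only, where its interval does not overlap that of replicate 1.

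**Figure D5:**
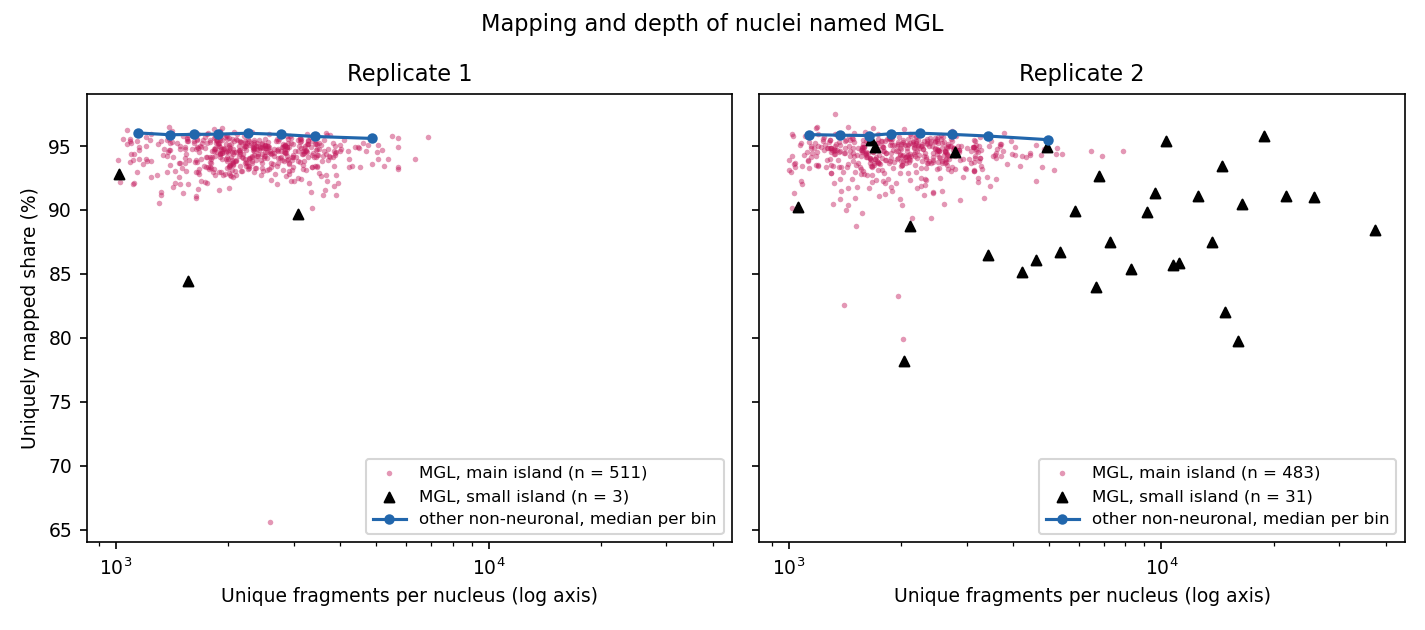
Uniquely mapped share (%) against unique fragments (log axis) of each MGL nucleus in replicates 1 and 2, with the main island as dots and the small island as triangles; the line joins medians of the other non-neuronal nuclei in 8 depth bins. Most MGL dots lie below the line at every depth, and the triangles of replicate 2 reach 37507 fragments and go down to 78.2%.

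Islands beside a main one occurred under other names too. With the linking distance of 3 times, 11 of 17 names formed 1 island, and with 5 times 14 did, MGL among them. OGC had a second island of 23 nuclei, 6 in replicate 1 and 17 in replicate 2, with median unique fragments of 4907.5 and 4858 beside 2456 and 2316 in its main island, so there the nuclei of both libraries were deep. VEC had a second island of 15 nuclei that were all from replicate 2, with medians of 3464 unique fragments and a uniquely mapped share of 94.6%, and another of 11. The second OGC island stayed separate at 5 and 10 times, and these VEC islands at 5 times. The small MGL island did not stay separate at 5 times.

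Mapping also varied along the main body of microglia. MGL nuclei were put in 5 bins of equal size along the longest axis of their positions, from lower left to upper right. In replicate 1 the median uniquely mapped share was 94.9%, 94.7%, 94.5%, 93.9% and 93.3% from bin 1 to bin 5. In replicate 2 it was 94.9%, 94.7%, 94.3%, 94.3% and 93.3%. Both libraries thus declined toward the end where the small island lies. Unique fragments had medians of 2346.5 in bin 1 and 2018 in bin 5 of replicate 1, and of 2199 and 1833 in replicate 2. Without the small island the last bin had uniquely mapped shares of 93.4% and 93.7%, and median unique fragments of 2025 and 1626. The rank correlation of axis position and unique fragments was -0.126 in replicate 1 and -0.0534 in replicate 2. Without the small island it was -0.120 and -0.221, so depth also declined along this axis. The rank correlation of axis position and uniquely mapped share was -0.476 over 514 nuclei of replicate 1 and -0.430 over 514 of replicate 2, and -0.463 and -0.372 without the small island. Along their own longest axes, the other non-neuronal names had absolute correlations of 0.434 and 0.416 in VLMC, 0.393 and 0.437 in PER and 0.411 and 0.346 in OPC. They were lower in ASC (0.226 and 0.153), OGC (0.214 and 0.222) and VEC (0.0401 and 0.0197). Nuclei of replicate 1 made up 57.28% of bin 1 and 33.98% of bin 5, and in bin 5 the main island alone held 67 nuclei of replicate 1 and 105 of replicate 2.

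The libraries were mixed within MGL slightly less than at random. Among the 30 nearest MGL neighbours of an MGL nucleus, the share from the other library was 0.936 of the share under random mixing for replicate 1 and 0.956 for replicate 2 (mean 0.946 ± 0.0141). Of the 17 names only VEC had a lower mean (0.748), and the pyramidal tract neurons PTGL were next above MGL (0.953), within the spread of MGL. Without the small island the MGL value was 0.968.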

How the data were processed

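Per-nucleus tables, 1 per library, were used. The deposited counts are whole numbers per nucleus: all fragments, those mapped uniquely, those in proper pairs, those left without duplicates, and mitochondrial ones. Column meanings follow the names SnapTools uses. The authors also deposited log10 values, equal to log10 of unique fragments plus 1, and a UMAP position as a score without unit. According to the methods, bwa alignment to mm10 was used, duplicates were removed, and nuclei were kept from 1000 fragments and above a TSS enrichment of 10, after which potential barcode collisions and doublets were removed. Cell Ranger ATAC and BWA appear in the submitters' processing notes. Their versions were not given in the sources used here. No doublet caller was run on the tables. A fragment minimum removes more of a shallow type, here MGL.

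Values were computed with scipy 1.17.1, numpy 2.4.6 and pandas 2.3.3 under Python 3.11.15, and plots with matplotlib 3.10.9. Shares per nucleus were computed from the counts. Islands are connected components of at least 10 nuclei, linked below a multiple of the median distance of all nuclei to their 10th neighbour (0.0814 units). Depth matching weighted the other non-neuronal nuclei to the MGL counts in 8 bins of unique fragments. Functions were tested on simulated data. Text names MGL in full, the other 6 non-neuronal names beside it and neurons only for an order, and no gene is measured. The members and lists were chosen with earlier results of these data known, and the small island was described after its values were seen.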

Additional observations from a re-analysis of the deposited data

How the results depend on the processing

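Of the 12 main values, 6 of 11 computed with at least 2000 unique fragments and all 9 computed after the deepest 5% of nuclei were dropped moved by less than 1 SD over the libraries. The deepest 5% were taken over all nuclei of a library, including the neurons, whose medians were higher than that of MGL. The MGL median of replicate 1 thus stayed at 2278, and that of replicate 2 was 2038. That setting is therefore no check on the deep nuclei of MGL in replicate 1. With at least 2000 fragments the MGL share was 4.22% of all and 13.9% of non-neuronal nuclei, the median 2694, its ratio to other non-neuronal nuclei 0.838 and the duplicate difference 0.129 percentage points. That ratio was 0.776 with geometric means, 0.765 without VEC and 0.745 without the small island, all in the same direction. In place of the limit of 1500 fragments, the lower limit tried gave 7.20% of MGL nuclei and a limit of 2000 gave 41.0%. Summed over nuclei, the uniquely mapped share was 93.5% and its difference -1.91, and in the main island alone the share was 94.2% and 94.1% per library. The duplicate difference was within the spread and changed sign without VEC (-0.00415). It was 0.169 when weighted by depth and ranged from -0.0506 to 0.0653 over single libraries. The largest island held 95.1%, 96.6%, 96.6%, 96.7% and 96.7% of MGL nuclei with linking multiples of 1.5, 2, 2.5, 3 and 3.4, and 100% at 3.5, 4, 5 and 10. Neighbours named MGL ranged from 99.6% to 100% over single libraries, and mixing was 0.921 with 10 neighbours and 0.968 without the small island. Leaving out the small island, and linking multiples other than 3, 5 and 10, were chosen after seeing the data. Mixing needs both libraries, so it has no value without either. No paired analysis was possible because both libraries belong to 1 condition. Depth limits the values above 5000 fragments, which rest on 13 and 28 nuclei.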

Other observations

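From properly paired and unique fragments, the number of distinct fragments in the library of each nucleus was estimated, with every fragment given the same chance of being sequenced. The median for MGL was 8626 in replicate 1 and 7268 in replicate 2. PER had 8751 and 7218.5, OGC 9363 and 8354, and ASC 12576 and 10878. MGL and PER thus differed by less than the spread between the libraries, and the order of the names was close to that of the unique fragments.

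Single MGL nuclei of the main island stood apart. In replicate 1, 1 nucleus with 4629 total and 2597 unique fragments had a uniquely mapped share of 65.6%, the lowest of all MGL nuclei. In replicate 2, 1 nucleus with 7895 unique fragments had a duplicate share of 33.2%, where the next highest in MGL was 18.9%.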
